A study of Arabidopsis thaliana with 3 samples.

Results

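The mature miRNAs of 22-day-old Arabidopsis seedlings were compared between the cdf2 mutant and its wild type Col, using the raw number of reads listed for each miRNA name. The question addressed is whether the loss of CDF2 goes with different levels of mature miRNAs. A miRNA was kept when it had 10 or more reads summed over both libraries, which left 230 of the 328 names listed. At the edge of that rule, miR3932a (3 reads in cdf2, 7 in Col) and miR863-5p (4 reads in cdf2, 6 in Col) were kept with 10 reads, and miR2934-3p (4 reads in cdf2, 5 in Col) was left out with 9 reads.

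The cdf2 seedlings carry a mutation of CDF2 in the Col ecotype, and the Col seedlings are the wild type of that ecotype. The labels do not name the cdf2 allele. Both were grown in soil under 16 hr of light and 8 hr of dark and received no treatment. Each genotype has 1 library of small RNAs from seedlings, and how many plants went into a library is not given in the sources used here. The series also holds 1 library of a dcl1-9 mutant, which was not compared here beyond its read counts for the families reported to be cut by DCL4. With 1 library per genotype no difference has a replicate check and no test is possible. From these counts alone, a difference between the libraries cannot be told apart from one between any 2 samples or between growth stages. The paper also reports northern blots of selected miRNAs in seedlings, miR156, miR172 and miR319 among them. It repeated blots in inflorescences to reduce the effect of growth stage, with a line carrying CDF2 again. Those blots were not used here. The intervals given with fold changes are 95% Clopper-Pearson intervals on the reads. They cover counting error only, since the reads carry no molecular identifiers. Every fold change is that of cdf2 over Col, and every ratio is called as such.

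CDF2, CYCLING DOF FACTOR 2, is a Dof-type transcription factor known for delaying flowering through the photoperiod pathway. A plant miRNA is cut from a folded primary transcript by the nuclease DCL1 with its partner HYL1, as a duplex of a guide strand and a star strand. The guide is loaded into an ARGONAUTE protein, most often AGO1, and pairs over nearly its whole length with the mRNA that it represses. Conserved miRNAs largely target transcription factors of development or genes of nutrient homeostasis, and many young miRNAs known only from Arabidopsis and its relatives are lowly expressed.

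The mature sequences of the miRNAs on which the comparison turns are given 5′ to 3′, with the seed (bases 2 to 8) in capitals. The RefSeq annotation of TAIR10.1 served to read them from that assembly and gave a sequence for 208 of the 230 miRNAs. The first set shows the miRNAs of phase change, the star strand of miR172b included.
miR156d: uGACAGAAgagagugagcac
miR157c: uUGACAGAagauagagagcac
miR172a: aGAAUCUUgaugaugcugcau
miR172b*: gCAGCACCauuaagauucac
On that assembly miR156d lies on the minus strand at chr5:3456713-3456732, inside an intron of a protein-coding gene on the same strand. miR157c lies on the minus strand at chr3:6244673-6244693, miR172a on the minus strand at chr2:11942918-11942938 and miR172b* on the minus strand at chr5:1188278-1188297, all outside protein-coding genes. The seed of miR156d is shared by 10 of the names kept, among them miR157d, while miR157c starts 1 base earlier on the same motif.

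The second set shows members of single families that differ at few bases or by a shift of their start, and whose fold changes differ.
miR164a: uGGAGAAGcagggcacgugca
miR164c: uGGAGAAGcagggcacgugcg
miR399b: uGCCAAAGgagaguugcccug
miR399a: uGCCAAAGgagauuugcccug
miR399d: uGCCAAAGgagauuugccccg
miR399f: uGCCAAAGgagauuugcccgg
miR169a: cAGCCAAGgaugacuugccga
miR169d: uGAGCCAAggaugacuugccg
miR169i: uAGCCAAGgaugacuugccug
Positions are counted from 1 at the 5′ end. miR164c (plus strand, chr5:9852684-9852704) carries A21G relative to miR164a (plus strand, chr2:19520770-19520790). Relative to miR399b (minus strand, chr1:23345387-23345407), miR399a (plus strand, chr1:10227165-10227185) carries G13U, miR399d (minus strand, chr2:14442988-14443008) carries G13U and U20C, and miR399f (plus strand, chr2:14445084-14445104) carries G13U and U20G. miR169d starts 1 base earlier than miR169a on the same motif, so that its seed is a shifted one. miR169a lies on the minus strand at chr3:4359182-4359202, miR169d on the minus strand at chr1:20039556-20039576 and miR169i at chr3:9872106-9872126 on the minus strand. All sequences of this set lie outside protein-coding genes.

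The third set shows miRNAs of families or rows whose fold changes are set against each other or against their families, miR390a being the relative of miR391.
miR391: uUCGCAGGagagauagcgcca
miR390a: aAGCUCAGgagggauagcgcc
miR398b: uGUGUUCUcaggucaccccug
miR397a: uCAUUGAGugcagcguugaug
miR857: uUUUGUAUguugaagguguau
miR395b: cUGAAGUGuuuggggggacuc
miR394a: uUGGCAUUcuguccaccucc
miR160b: uGCCUGGCucccuguaugcca
miR319b: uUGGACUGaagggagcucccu
miR869.2: uCUGGUGUugagauaguugac
miR391 lies on the plus strand at chr5:24293160-24293180, miR857 on the minus strand at chr4:7878198-7878218, miR394a on the plus strand at chr1:7058207-7058226 and miR869.2 on the minus strand at chr5:15891614-15891634. miR390a lies on the plus strand at chr2:16061971-16061991, miR395b on the plus strand at chr1:9364540-9364560, miR160b on the plus strand at chr4:9888986-9889006 and miR319b on the minus strand at chr5:16660469-16660489. All of these are outside protein-coding genes. miR398b (plus strand, chr5:4691107-4691127) overlaps an exon, and miR397a (plus strand, chr4:2625960-2625980) an intron, of a protein-coding gene on the opposite strand.

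The library totals of the deposited table are 14406060 reads for cdf2 and 14073145 for Col. Both are larger than the numbers of reads that the paper gives for these genotypes. Levels scaled to the totals of the table are in RPM (reads per 1000000 reads), so that 1 read stands for 0.0694 RPM in cdf2 and 0.0711 in Col. The reads under all miRNA names add up to 5248526 in cdf2, 36.4% of that total, and to 8833288 in Col, 62.8%. A read can stand under several names, because most members of a family with one mature sequence have nearly equal counts. With 1 name per mature sequence the sums are 1719243 reads in cdf2 (11.9% of the total) and 2805956 in Col (19.9%). The paper normalized to the number of perfectly aligned reads, and whether the totals of the table are that number is not stated. These shares are therefore relative to the totals of the table only. Whether the smaller miRNA share in cdf2 belongs to the miRNAs or to other RNA in the library was not tested.

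Of the 230 miRNAs, 81 were at least 1.5-fold lower in cdf2, which is 35.2%, and 38 were at least 1.5-fold higher, which is 16.5%, while 111 lay within 1.5-fold. For 60 of the lower and 20 of the higher miRNAs the counting interval left out 1. The median fold change was 0.794, or -0.33 on the log2 scale, so that the typical miRNA was lower in cdf2 on this scale.

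The scale of the libraries decides this split, since it multiplies all fold changes by 1 factor. With the TMM factors of edgeR 47 miRNAs were lower and 58 higher, with those of DESeq2 the numbers were 33 and 65, with the miRNA reads counted once per sequence 17 were lower and 95 higher, and with the sum of all miRNA reads 16 were lower and 100 higher. The log2 fold changes moved up by 0.25, 0.33, 0.74 and 0.78 under these scalings, in that order. The lower calls were 68.1% of all calls on the totals of the table, 44.8% under TMM, 33.7% under DESeq2, 15.2% with reads counted once per sequence and 13.8% with all miRNA reads. Because every other scaling tried moved the fold changes up, the 38 higher miRNAs passed the limit under all 5, and 16 of the lower ones did. These 16 are miR164c, miR170, miR2111a, miR2111b, miR391, miR398a, miR398b, miR398c, miR399a, miR399d, miR399f, miR5648-5p, miR771, miR831, miR840 and miR849. The best covered of them were miR391, with 52367 reads in both libraries together, and miR164c, with 2097. Others rest on few reads, such as miR831 (2 in cdf2, 13 in Col) and miR840 (3 in cdf2, 11 in Col). The counting interval of miR840, 0.0477 to 1.01, includes 1. miR398b and miR398c have 1 mature sequence, and miR2111a and miR2111b have equal counts, so that the 16 are not all separate measurements.

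**Figure D1:**
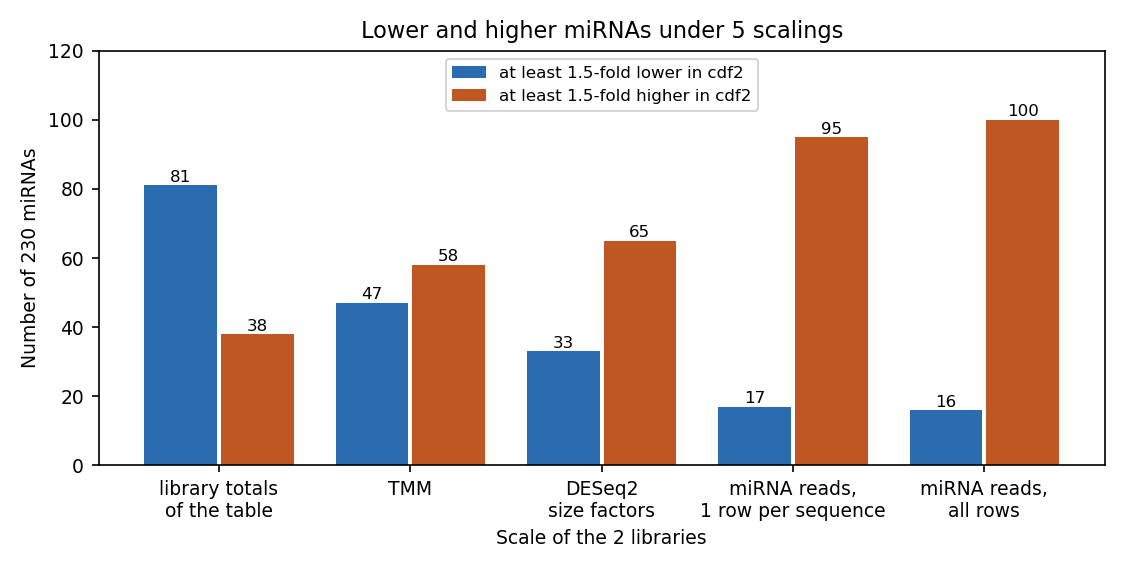
Number of the 230 miRNAs at least 1.5-fold lower (blue) and at least 1.5-fold higher (orange) in cdf2 than in Col, on the vertical axis, for the 5 scalings of the libraries along the horizontal axis. The lower miRNAs are more numerous on the library totals of the table (81 against 38) and the higher ones are more numerous under each of the other 4.

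Fold changes also differed with the number of reads. Of 170 groups of rows that share a mature sequence, 59 were at least 1.5-fold lower and 25 higher, with a median log2 fold change of -0.32. Among them, the 23 with 5000 or more reads in both libraries together had a median of -0.68 (13 lower, 0 higher). The 34 sequences with 500 to 4999 reads had a median of -0.14 (8 lower, 3 higher), the 55 with 50 to 499 reads -0.19 (11 lower, 8 higher), and the 58 with 10 to 49 reads -0.45 (27 lower, 14 higher). The most abundant sequences thus had the lowest median, followed by the rarest. Not all abundant miRNAs were low, since the miR158 family, with 172998 reads in cdf2 and 193636 in Col, had a fold change of 0.873. The sequences also differed by their first base, which in plants bears on the ARGONAUTE protein that loads them. The 105 that start with U had a median log2 fold change of -0.42, the 28 with A -0.22, the 10 with C 0.03 and the 6 with G 0.85. The few with G are miR172b*, miR172e, miR2933a, miR5644, miR5646 and miR854a. Of these 6, 4 were at least 1.5-fold higher in cdf2, against 25 of all 170 groups, a description with no test. Some of the 170 groups have no sequence from the assembly and thus no first base here. None of those with G had 5000 or more reads, and among the sequences under that number the 86 with U had a median of -0.38.

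**Figure D2:**
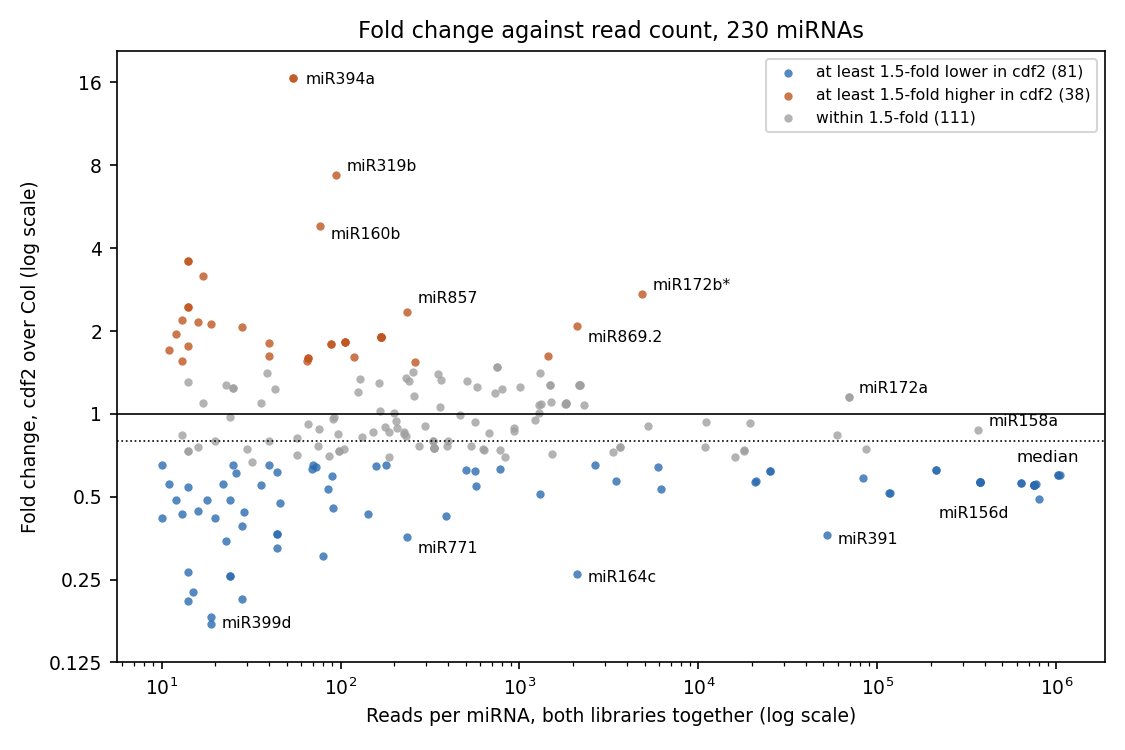
Fold change of cdf2 over Col (vertical, log scale) against the reads of both libraries together (horizontal, log scale) for 230 miRNAs, with counts of 3 or fewer set to 3, a solid line at 1 and a dotted line at the median of 0.794. The miRNAs with the most reads lie below 1, miR391 and miR164c lie below the miRNAs of like abundance, and miR172b* and miR869.2 lie above them.

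To describe families, the reads were summed over the distinct mature sequences of each family, with 1 name per sequence and without star strands. Of 123 families with 10 or more reads, 39 were at least 1.5-fold lower (31.7%) and 19 at least 1.5-fold higher (15.4%), with a median fold change of 0.830. A list of 73 families by their known targets covers 65 of these 123, of which 25 were lower and 8 higher. Of the 65, 47 had a fold change below 1 on the totals of the table, and of these 30 were above 1 with either sum of miRNA reads, 12 with the factors of DESeq2 and 9 with TMM. A ratio of 2 families' fold changes does not depend on the library totals, which cancel, and such ratios are given for some pairs of families. Comparisons without such a ratio, and counts of lower and higher families, depend on the scale.

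The miRNAs of phase change differed in direction. miR156 and miR157, which repress the SPL transcription factors and keep the shoot juvenile, were lower in cdf2, while miR172, which represses AP2-like factors and promotes adult growth and flowering, was not. The miR156 family had 299439 reads in cdf2, against 585624 in Col, with a fold change of 0.500 (0.497 to 0.502). The miR157 family had 435797 reads in cdf2 and 696960 in Col, with a fold change of 0.611 (0.609 to 0.613). For miR172 the 38633 reads in cdf2 stood against 32694 in Col, with a fold change of 1.15 (1.14 to 1.17). The miR172 to miR156 ratio was therefore 2.31 times as high in cdf2 as in Col (2.28 to 2.35), whichever scale is used, and the miR172 to miR157 ratio 1.89 times as high (1.86 to 1.92). Of 18 names in these families, 11 were at least 1.5-fold lower and 0 higher, beside 35.2% and 16.5% of all names, and most of the 11 repeat the reads of a few sequences. Over the 5 scalings the fold change lay between 0.500 and 0.861 for miR156, between 0.611 and 1.05 for miR157 and between 1.15 and 1.99 for miR172.

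Within these families the rows did not all move alike. miR157c, miR157b, miR157a, miR156d and miR166a had the most reads of all names in Col. The counts of miR157c were 398488 in cdf2 and 648158 in Col, and those of miR157d were 37309 in cdf2 and 48802 in Col. Relative to miR157c the fold change of miR157d was 1.24 times as high (1.23 to 1.26). miR156d and miR156a have the same mature sequence, but miR156d had 130376 more reads than miR156a in cdf2 and 295256 more in Col, and its fold change of 0.491 compares with 0.566 for miR156a. The rule that gave these rows different counts is not given in the sources used here. The less abundant miR156g had 337 reads in cdf2 and 445 in Col, and its fold change was 1.51 times that of miR156d (1.30 to 1.74). miR156j had 447 reads in cdf2 and 854 in Col, close to miR156d with a fold change of 0.511.

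The star strand of miR172b stood apart from its guide. It had 3547 reads in cdf2 and 1275 in Col, a fold change of 2.72 (2.55 to 2.90), which is the highest among names with 100 or more reads. Star reads per guide read were 0.0949 in cdf2 and 0.0402 in Col, so that this ratio was 2.36 times as high in cdf2 (2.21 to 2.52). A star strand is usually degraded once its guide is loaded. The mature sequence of miR172b is also that of miR172a, so guide reads of both loci stand in that ratio, while the star reads carry the name of miR172b. For the other hairpins with 50 or more reads on both strands the ratio moved less. The miR169g* to miR169g ratio was 0.986 times that of Col (0.845 to 1.15), and the miR841b* to miR841b ratio was 1.44 times that of Col (0.952 to 2.20), so that neither differed beyond counting error. The minor guides miR172c (840 reads in cdf2, 646 in Col) and miR172e had fold changes close to that of miR172a.

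The list groups 11 families under transcription factors of leaf and flower development, among them miR169 with its NF-YA targets and miR858. Of the 11, 6 were at least 1.5-fold lower and 0 higher on the totals of the table, beside 31.7% and 15.4% of all families. Their 40 names held 20 lower and 1 higher, beside 35.2% and 16.5% of all names. Names that share a sequence, such as those of miR166, are not separate measurements. With the sum of all miRNA reads, only miR170 of the 6 stayed at least 1.5-fold lower (0.594). The fold change was then 0.886 for miR165, 0.954 for miR166, 0.961 for miR171, 0.978 for miR396 and 1.13 for miR159. On that scale miR169 (1.97), miR319 (2.16) and miR858 (2.43) were at least 1.5-fold higher. Leaf polarity is set by HD-ZIP III factors, which miR165 and miR166 repress. The miR166 family had 279761 reads in cdf2 and 493332 in Col, with a fold change of 0.554 (0.551 to 0.557). The miR165 family had 40355 reads in cdf2 and 76644 in Col, with a fold change of 0.514 (0.508 to 0.521). These sequences differ at 1 base (C17U in miR166a relative to miR165a), and their fold changes were near each other, with a ratio of miR165 over miR166 of 0.928 (0.917 to 0.941).

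Other families of this class lay on both sides of 1. The miR396 family, which represses the GRF growth factors, had 15333 reads in cdf2 and 26397 in Col (fold change 0.567). The GRAS factors of the SCL type are targets of miR170 and miR171, with 6 reads for miR170 in cdf2 and 17 in Col (fold change 0.345, 0.111 to 0.916). For miR171 there were 233 reads in cdf2 and 408 in Col (fold change 0.558), so that the wide interval of miR170 spans it. miR159, which represses GAMYB-like factors, had 4040 reads in cdf2 and 6025 in Col, a fold change of 0.655. Its relative miR319, which represses TCP factors of leaf shape, had 216 reads in cdf2 and 168 in Col, a fold change of 1.26 (1.02 to 1.55). The fold change of miR319 was thus 1.92 times that of miR159 (1.55 to 2.37). miR824, which targets the MADS-box gene AGL16, had 314 reads in cdf2 and 361 in Col, and miR858, which targets MYB factors, had 13 reads in cdf2 and 9 in Col.

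In the miR164 family, which represses NAC factors that set organ boundaries, 1 member moved away from the others. miR164c had 443 reads in cdf2 and 1654 in Col, a fold change of 0.262 (0.235 to 0.291), the lowest among names with 100 or more reads. miR164a had 7729 reads in cdf2 and 10264 in Col, and miR164b, with the same sequence as miR164a, had 7774 in cdf2 and 10315 in Col. The miR164c to miR164a ratio was 0.356 times that of Col (0.318 to 0.397), a difference that no scaling changes. The mature sequences of miR164c and miR164a differ only by A21G, at the last base. The rule that assigned reads to these names is not given in the sources used here.

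The miR169 family, which represses NF-YA factors of drought and nutrient responses, had 2113 reads in cdf2 and 1804 in Col, a fold change of 1.14, but held subgroups. The sequence of miR169d, shared by miR169d to miR169g, had 1226 reads in cdf2 and 941 in Col (fold change 1.27). The sequence of miR169i had 145 reads in cdf2 and 189 in Col (fold change 0.749). miR169h has that same sequence but a lower count, with 42 reads in cdf2 and 56 in Col. miR169a lay between them with 697 reads in cdf2 and 628 in Col. For miR169d it was 1.74 times that of miR169h (1.13 to 2.68) and 1.70 times that of miR169i (1.34 to 2.16). As these names share a sequence, both ratios describe 1 difference, which is beyond counting error.

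The auxin families also differed among themselves. miR167, which represses the auxin response factors ARF6 and ARF8, had 235586 reads in cdf2 and 409077 in Col, a fold change of 0.563. Among its rows, miR167d had 2195 reads in cdf2 and 4015 in Col (fold change 0.534). miR160, which represses ARF10, ARF16 and ARF17, had 107 reads in cdf2 and 126 in Col, with an interval of 0.635 to 1.08 that spans no difference. miR393, which represses the auxin receptors TIR1 and AFB, had 11 reads in cdf2 and 3 in Col, and its ratio of 3.58 had an interval of 0.946 to 20.0. Relative to miR167, the fold change of miR160 was 1.47 times as high (1.13 to 1.92) and that of miR393 6.37 times as high (1.68 to 35.5).

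miR394, which represses the F-box gene LCR of leaf and meristem development, had the highest fold change among the 123 families. It had 51 reads in cdf2 and 3 in Col, a ratio of 16.6 (5.37 to 83.2). Relative to miR159a, its fold change was 25.9 times as high (8.34 to 129). miR394a and miR394b have 1 sequence and the same counts, so that this is a single measurement on few reads.

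The high rows of miR160b and miR319b share this pattern but cannot be assigned to their loci. miR160b had 64 reads in cdf2 and 13 in Col, a fold change of 4.81 (2.62 to 9.52), and miR319b had 83 reads in cdf2 and 11 in Col, a fold change of 7.37 (3.91 to 15.3). miR160b has the mature sequence of miR160a and miR160c, and miR319b that of miR319a. Yet miR160c had 107 reads in cdf2 and 126 in Col, and miR319a had 210 reads in cdf2 and 154 in Col. The fold change was 5.80 times as high for miR160b as for miR160c (2.95 to 12.1) and 5.53 times as high for miR319b as for miR319a (2.81 to 11.9). Rows with identical sequences thus gave unlike fold changes, and the family values above rest on the row with more reads.

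**Figure D3:**
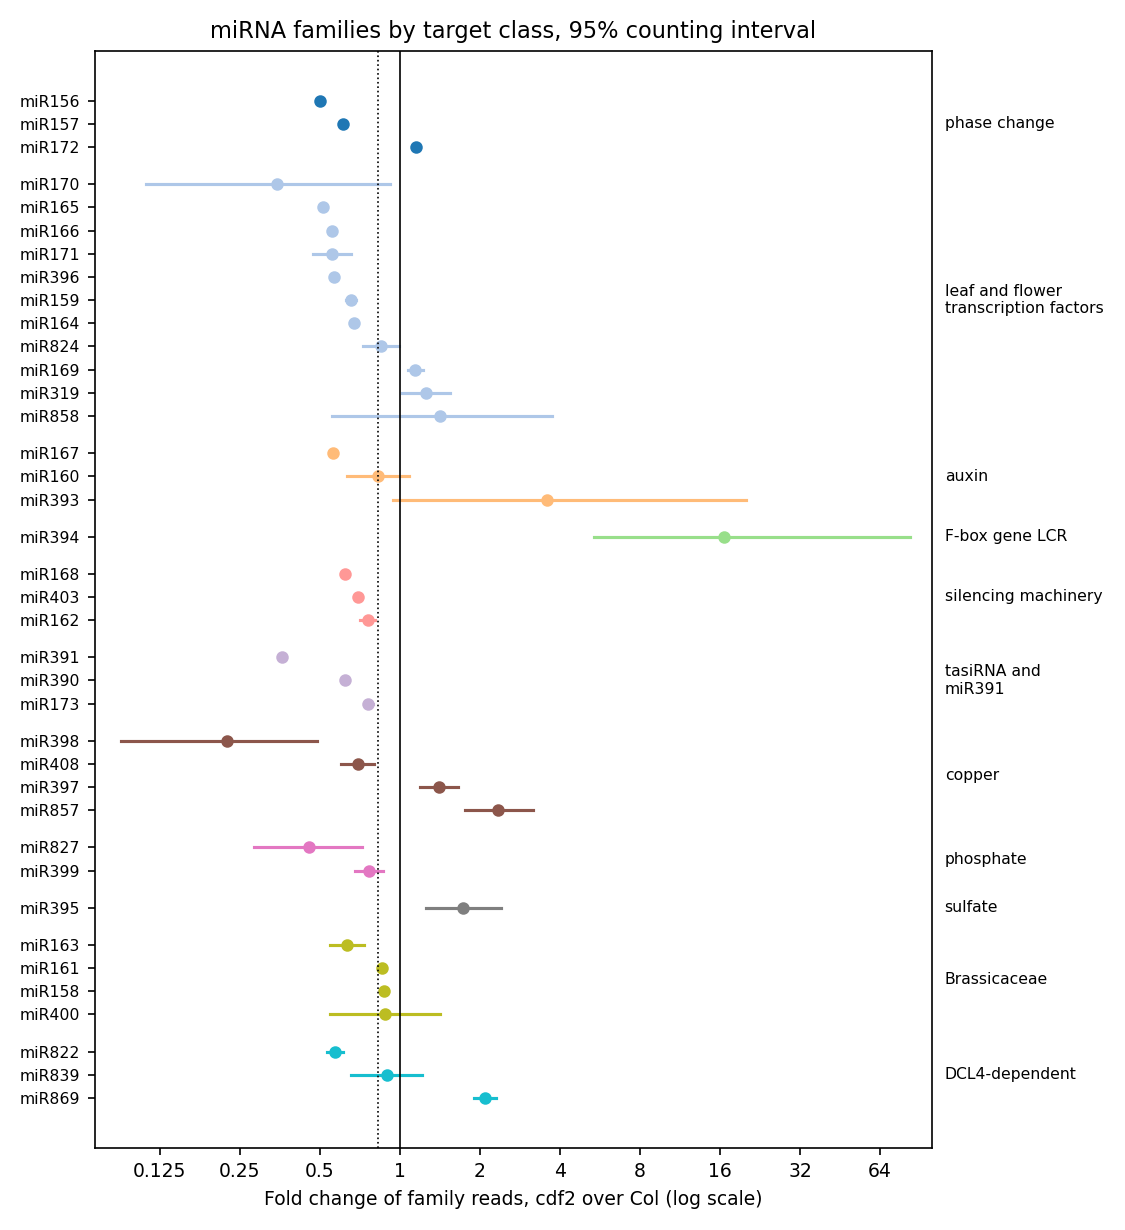
Fold change of family reads, cdf2 over Col (horizontal, log scale), for families with 10 or more reads in 11 of the target classes named at the right, with bars for the 95% counting interval, a solid line at 1 and a dotted line at the median family (0.830). miR172 lies right of miR156 and miR157, and the 4 copper families are spread from 0.223 to 2.35.

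The silencing machinery is itself under miRNA control. miR162 targets the mRNA of DCL1, miR168 that of AGO1 and miR403 that of AGO2. The miR168 family had 82578 reads in cdf2 and 129349 in Col, a fold change of 0.624 (0.618 to 0.629). miR162 had 1589 reads in cdf2 and 2049 in Col (fold change 0.758), and miR403 had 6664 reads in cdf2 and 9351 in Col (fold change 0.696). All 3 were below 1 on the totals of the table, as were 47 of the 65 listed families. Of the 3, 1 was at least 1.5-fold lower, beside 31.7% of all families. The fold change of miR168 was 0.823 times that of miR162 (0.770 to 0.880), and that of miR168 turned to 1.07 with the sum of all miRNA reads.

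miR173 and miR390 trigger the trans-acting siRNAs (tasiRNAs), which are small RNAs made in phase from the TAS transcripts. miR173 had 4784 reads in cdf2 and 6143 in Col (fold change 0.761), and miR390 had 9820 reads in cdf2 and 15454 in Col (fold change 0.621). miR391, a relative of miR390 in sequence, had 14149 reads in cdf2 and 38218 in Col. Its fold change of 0.362 (0.355 to 0.369) was the lowest of any family with 5000 or more reads, and was 0.436 times that of the median family. The fold change of miR390 was 1.72 times that of miR391 (1.66 to 1.77), and that of miR391 was 0.724 times that of miR156 (0.710 to 0.739). Over the 5 scalings, miR391 lay between 0.362 and 0.623.

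The copper miRNAs, which under copper shortage repress copper proteins that the plant can spare, did not move together. miR398, which represses copper/zinc superoxide dismutases, had 8 reads in cdf2 and 35 in Col, a fold change of 0.223 (0.0895 to 0.490). miR408, which represses plantacyanin and laccases, had 343 reads in cdf2 and 482 in Col, a fold change of 0.695 (0.604 to 0.800). On the other side, miR397, which represses laccases, had 357 reads in cdf2 and 248 in Col, a fold change of 1.41 (1.19 to 1.66). miR857, which represses the laccase LAC7, had 166 reads in cdf2 and 69 in Col, a fold change of 2.35 (1.76 to 3.16). The ratios between them are free of the library total. The fold change of miR398 was 0.321 times that of miR408 (0.127 to 0.717), while that of miR397 was 6.30 times (2.80 to 15.9) and that of miR857 10.5 times (4.47 to 27.4) that of miR398. miR398 is the least covered of these families, and with its most abundant row alone its ratio to miR408 was 0.370 (0.107 to 1.04).

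Among the phosphate families, miR399, which represses PHO2 and so favours phosphate uptake, had 472 reads in cdf2 and 601 in Col, a fold change of 0.767. miR827, which represses the ubiquitin ligase NLA, had 29 reads in cdf2 and 62 in Col, a fold change of 0.457 (0.283 to 0.721). miR778, the third family of the list, had fewer than 10 reads. Most of the miR399 reads stood under miR399b and miR399c, and miR399c had 446 reads in cdf2 and 492 in Col. The sequences with G13U were lower by far. miR399a had 5 reads in cdf2 and 23 in Col, miR399d had 2 reads in cdf2 and 17 in Col, and miR399f had 19 reads in cdf2 and 61 in Col. Together these had 26 reads in cdf2 and 101 in Col, and their fold change was 0.284 times that of miR399c (0.174 to 0.451). miR2111, a phosphate-responsive miRNA outside the list that was chosen after its values were seen, had 12 reads in cdf2 and 32 in Col (fold change 0.366, 0.172 to 0.731).

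miR395, which represses ATP sulfurylases and the sulfate transporter SULTR2;1, was higher. The family had 110 reads in cdf2 and 62 in Col, a fold change of 1.73 (1.26 to 2.41). All 6 of its names were at least 1.5-fold higher, beside 16.5% of all names. These names hold 2 sequences, of which miR395b had 69 reads in cdf2 and 37 in Col, and miR395a had 41 reads in cdf2 and 25 in Col. Relative to the phosphate family, the fold change of miR395 was 2.26 times that of miR399 (1.60 to 3.21), a pair compared after values were seen.

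**Figure D4:**
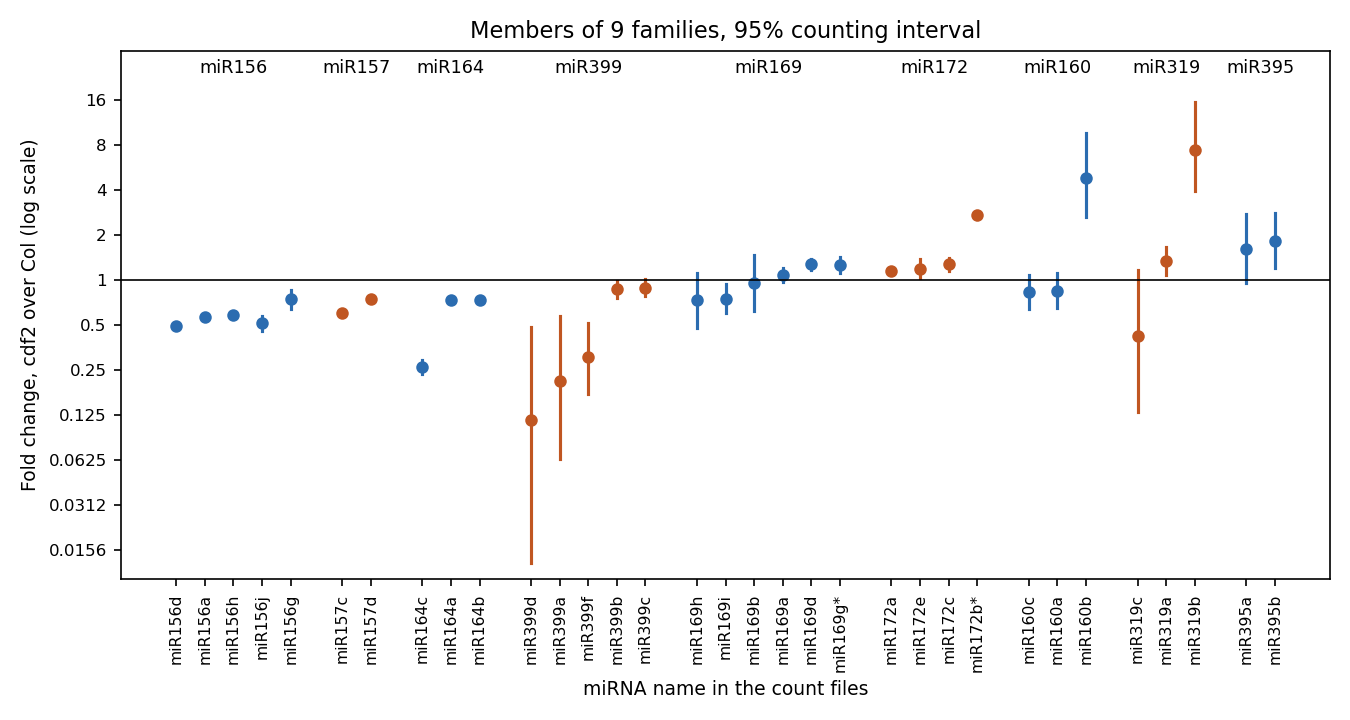
Fold change of cdf2 over Col (vertical, log scale) for single names of 9 families along the horizontal axis, with bars for the 95% counting interval, a line at 1 and colours that only separate neighbouring families. miR164c lies below miR164a and miR164b, miR399a, miR399d and miR399f lie below miR399b and miR399c, and miR172b*, miR160b and miR319b lie above the other names of their families.

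Of 4 families of the Brassicaceae, which mostly target PPR or methyltransferase genes, 1 was at least 1.5-fold lower and 0 higher, beside 31.7% and 15.4% of all families. miR158 had a fold change of 0.873, miR161 had 32805 reads in cdf2 and 37505 in Col (fold change 0.854), and miR400 had 36 reads in cdf2 and 40 in Col. miR163, which targets methyltransferase genes, had 306 reads in cdf2 and 473 in Col (fold change 0.632). These 4 lay close to the median family, except for miR163.

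Families reported to be cut by DCL4 in place of DCL1 went different ways. That grouping was not tested here. The dcl1-9 library, with a total of 9443719 reads, held 218 reads of miR822, 53 of miR839 and 1 of miR869. The Col library, with a total of 14073145 reads, held 2178, 93 and 673 of them, so that miR869 was nearly absent from dcl1-9. miR822 had 1273 reads in cdf2 and 2178 in Col, a fold change of 0.571 (0.532 to 0.612). miR869.2 had 1428 reads in cdf2 and 667 in Col, a fold change of 2.09 (1.91 to 2.30). The third, miR839, had 85 reads in cdf2 and 93 in Col. Set against each other, the fold change of miR869.2 was 3.66 times that of miR822 (3.26 to 4.12), so that the relation of these young families to each other differed between the libraries whatever the scale.

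Small classes held few reads. Of the miRNAs of defence genes, miR472 had 8 reads in cdf2 and 20 in Col (fold change 0.391, 0.149 to 0.926), and miR825 had 178 reads in cdf2 and 219 in Col. miR842 and miR846, which target jacalin genes, had 8 and 99 reads in cdf2, against 14 and 109 in Col. miR823, which targets the DNA methyltransferase CMT3, had 138 reads in cdf2 and 102 in Col (fold change 1.32, 1.02 to 1.72). miR773, which targets MET2, had 24 reads in cdf2 and 33 in Col. Only miR472 and miR842 passed 1.5-fold among these, and the interval of miR842 (0.203 to 1.43) spans 1.

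Of the 26 other young families listed, 21 had 10 or more reads, of which 7 were at least 1.5-fold lower and 3 higher, with a median log2 fold change of -0.26. These counts are near the shares of all families, 31.7% and 15.4%. The lowest was miR771, with 63 reads in cdf2 and 172 in Col, a fold change of 0.358 (0.264 to 0.480). miR851 had 220 reads in cdf2 and 347 in Col (fold change 0.619), and miR841 had 115 reads in cdf2 and 180 in Col (fold change 0.624). In miR841 the row miR841b carried the difference, with 44 reads in cdf2 and 99 in Col, while the row miR841 had 71 in cdf2 and 81 in Col. That of the miR841 row was 1.97 times as high as that of miR841b (1.19 to 3.27). The higher families were miR854, with 111 reads in cdf2 and 57 in Col for 1 sequence under 5 names (fold change 1.90, 1.37 to 2.67), miR843, with 160 reads in cdf2 and 101 in Col (fold change 1.55), and miR867, with 11 reads in cdf2 and 5 in Col. The well covered miR780 (3942 reads in cdf2, 4626 in Col), miR775 (1197 in cdf2, 1087 in Col), miR863 (798 in cdf2, 707 in Col) and miR848 (669 in cdf2, 609 in Col) stayed within 1.5-fold, as did miR447, miR850, miR852, miR860, miR864, miR866 and miR847. Of these, miR447 held rows that differed, since the fold change of miR447a.2 (74 reads in cdf2, 54 in Col) was 1.69 times that of miR447a (148 in cdf2, 182 in Col; 1.09 to 2.60). The other lower ones, miR862, miR868, miR845 and miR861, had between 4 and 11 reads in cdf2.

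Among miRNAs without a listed target class, the clearest differences were those of miR5020 and miR5635. miR5020b had 118 reads in cdf2 and 270 in Col, a fold change of 0.427 (0.341 to 0.532), and the fold change of miR5020a was 1.53 times that (1.04 to 2.24). miR5635d had 901 reads in cdf2 and 542 in Col, a fold change of 1.62 (1.46 to 1.81), and miR5635b had 452 in cdf2 and 299 in Col. The 4 names of miR5635 have 1 mature sequence, so that these rows, though unlike in count, are not separate measurements. miR5655 had 74 reads in cdf2 and 45 in Col (fold change 1.61, 1.09 to 2.38). The name miR849, with 0 reads in cdf2 and 14 in Col, was the only one kept with a count of 0. The upper end of its counting interval is a fold change of 0.294.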

How the data were processed

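Small RNAs were isolated from 22-day-old seedlings and sequenced on the Illumina platform by the authors. After adaptor trimming they used Bowtie to map reads to miRNA hairpins (miRBase 15), followed by an alignment to the miRNA database in its version 16, and named TAIR10 as the genome. The deposited counts are raw reads per miRNA name, not normalized. The authors also deposited RPM values, which are these counts scaled to a total number of reads listed in the same table. That total was the scale used here. The table's columns of fold changes and p-values hold the authors' own comparison and were not used.

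The miRNAs, families and target classes were chosen with earlier results of these data known. Fold changes were computed from counts with Python 3.11.15, scipy 1.17.1 (Clopper-Pearson intervals at 95%) and R 4.3.3 (intervals of ratios from the conditional odds ratio). A miRNA was called lower or higher at 1.5-fold, with 3 or fewer reads set to 3, and such a call is no test. With 1 library per genotype no edgeR or DESeq2 test could be run. These tools (edgeR 4.0.16, DESeq2 1.42.0) gave scaling factors only. The calculations were tested on simulated data. A family's reads were summed over its distinct mature sequences, taking the name with the most reads for each, with only the more abundant arm where both arms of a hairpin are listed. Named were the listed families, the 10 highest and 10 lowest names with 100 or more reads, the 5 most abundant in Col, members of 1 family with 50 or more reads that differed by 1.5-fold, and hairpins with 50 or more reads on both strands. Names outside this rule (miR2111, miR399a, miR399d, miR157d, miR169i, miR172c, miR5648-5p, miR831, miR840 and miR849) and the ratios miR172 to miR157, miR165 to miR166, miR391 to miR156, miR397 and miR857 to miR398, miR395 to miR399, miR394a to miR159a, miR869.2 to miR822 and those within miR157, miR169 and miR399 (except miR169d to miR169h) were chosen after values were seen. Alternatives were 4 other scalings, filters, fold limits, and other ways to sum a family.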

Additional observations from a re-analysis of the deposited data

How the results depend on the processing

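No paired analysis was possible because each genotype has 1 library, and leaving out a replicate was not possible for the same reason. The counts of lower and higher miRNAs and the median log2 fold change, 81, 38 and -0.33 on the totals of the table, became 16, 100 and 0.45 with the sum of miRNA reads, 17, 95 and 0.41 with reads counted once per sequence, 33, 65 and 0 with the DESeq2 factors, and 47, 58 and -0.077 with TMM. In the same order the median family had a fold change of 1.43, 1.39, 1.04 and 0.990. With fewer miRNAs entering, the higher ones were 23 among 186 with 10 or more reads in each library and 25 among 170 with 1 row per sequence, and 43 were lower and 14 higher among 140 with 100 or more reads. At a limit of 2-fold, 30 were lower and 16 higher, and 20 were higher with an interval above 1. Among listed families at least 1.5-fold lower on the table's totals, the fold change was above 1 with the sum of miRNA reads, and with reads counted once per sequence, for miR157 (1.05 and 1.02), miR851 (1.07 and 1.03), miR390 (1.07 and 1.04), miR168 (1.07 and 1.04), miR841 (1.08 and 1.04), miR163 (1.09 and 1.06), miR861 (1.12 and 1.09) and miR159 (1.13 and 1.09). None of these was above 1 under TMM or DESeq2. Of all 47 listed families below 1 on the table's totals, 30 were above 1 under either miRNA sum, 12 under DESeq2 and 9 under TMM. The last include miR158 (1.04), miR161 (1.02) and miR824 (1.01), whose intervals on the table's totals lie below 1. With all rows of a family summed, the ratio of miR172 to miR156 was 2.12 and that of miR319 to miR159 was 2.49, which includes the row miR319b. The RPM values of the deposited table gave the same family values for 51 of 51 listed families whose rows are all in it. This is no separate check, because those values are the same counts scaled to the same totals. Depth limits families such as miR393, miR394, miR398 and miR170, which rest on 3 to 51 reads in a library.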
